A study of Mus musculus with 11 samples.

Results

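Ctla2a, Ctla2b, Cd34, Angpt1, Myct1, Adgrl4, Cd93, Mc5r, F2r and Muc13 encode surface, secreted and membrane-linked proteins of blood progenitors, and they are 10 of the 19933 mouse genes with a level on these arrays. They were chosen by their large falls in log2 intensity between the Pre MegE and the CFU-E stage of red cell development on these arrays, so the size of that fall is a description of the choice and was not tested. Each gene was read from 1 probe set with a single gene symbol. All 10 passed the filter on low values, and their falls held places between 1 and 33 among the 10701 genes that passed it in progenitors. Cd93, the smallest fall among them, had a log2 difference of -3.45, and the next gene below it, S1pr1, also had -3.45. Other genes lay between these places and were not chosen.

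The study sorted cells from C57Bl/6 mice at steady state in which gfp had been placed into Zbtb46, which encodes a zinc finger transcription factor of classical dendritic cells. KO mice were Zbtb46gfp/gfp, Het mice were Zbtb46 gfp/+ and WT mice were Zbtb46+/+. Splenic CD4+ dendritic cells (DC) of KO and WT mice were sorted for CD4, CD11b, CD11c, CD172 and MHC class II, without B220 or CD8. Bone marrow of KO, Het and WT mice gave 3 populations, all lineage-negative with CD117 and without CD41 or CD16/32: Pre MegE cells with CD150 and no CD105, Pre CFU-E cells with CD150 and low CD105, and CFU-E cells with CD105 and no CD150. Each genotype and cell type had 1 array, 11 in all, with no Het DC. The labels give neither how many mice stand behind an array nor whether 1 mouse gave several stages, so spreads and p-values measure these arrays only. None of the 10 genes encodes a protein of the gates.

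Pre MegE cells can still give rise to megakaryocytes and to red cells, Pre CFU-E cells are further along the red cell path, and CFU-E cells form small erythroid colonies. Early blood progenitors share many surface molecules with the endothelium that lines blood vessels, among them the sialomucin CD34, the lectin CD93 and the receptor Tie2, and they lose them as they mature. Angiopoietin 1, made by Angpt1, is a secreted ligand of Tie2, and the thrombin receptor made by F2r is cut open by thrombin and signals through G proteins.

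The 4 genes shown here do not include F2r, Mc5r or Muc13, whose fall between Pre CFU-E and CFU-E was the larger in every genotype, as described below. The promoter sequence of the 4 is shown to place the letters of 2 motif families used by blood transcription factors. The sequences are the 250 bases before the annotated start from RefSeq on GRCm38.p6, printed 5′ to 3′ on the strand of the gene. Capitals mark matches on either strand to the GATA letters AGATAA, with T also allowed as the first letter and G as the last, or to the ETS letters AGGAAG. The promoters lie at chr13:60936626-60936875 (minus strand, Ctla2a, the first of its 2 annotated starts), chr13:60897448-60897697 (minus strand, Ctla2b, inside the annotated span of the gene), chr1:194938571-194938820 (plus strand, Cd34) and chr10:5593478-5593727 (plus strand, Myct1).
Ctla2a: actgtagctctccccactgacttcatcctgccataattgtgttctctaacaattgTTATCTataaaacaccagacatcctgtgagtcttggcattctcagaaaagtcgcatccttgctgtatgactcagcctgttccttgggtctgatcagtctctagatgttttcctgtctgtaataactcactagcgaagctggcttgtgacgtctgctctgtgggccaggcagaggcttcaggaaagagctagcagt
Ctla2b: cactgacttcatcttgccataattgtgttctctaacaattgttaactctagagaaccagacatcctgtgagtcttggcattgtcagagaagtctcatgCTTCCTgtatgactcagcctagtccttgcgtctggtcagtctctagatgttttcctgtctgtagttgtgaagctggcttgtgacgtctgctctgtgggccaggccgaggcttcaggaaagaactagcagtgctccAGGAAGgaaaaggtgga
Cd34: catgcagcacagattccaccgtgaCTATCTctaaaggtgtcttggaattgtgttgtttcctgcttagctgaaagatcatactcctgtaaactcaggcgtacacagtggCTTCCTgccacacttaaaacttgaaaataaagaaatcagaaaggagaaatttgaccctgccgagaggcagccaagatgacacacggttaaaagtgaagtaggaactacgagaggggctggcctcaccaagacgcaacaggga
Myct1: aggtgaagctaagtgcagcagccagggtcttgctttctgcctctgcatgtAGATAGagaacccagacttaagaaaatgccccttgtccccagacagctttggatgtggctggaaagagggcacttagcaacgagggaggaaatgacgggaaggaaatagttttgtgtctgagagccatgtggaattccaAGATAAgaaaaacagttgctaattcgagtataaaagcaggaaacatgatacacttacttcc
Ctla2a and Ctla2b are near copies, with 208 of 228 aligned promoter bases identical (91.2%). The window of Ctla2a holds a GATA match and that of Ctla2b holds 2 ETS matches, and the window of the other annotated start of Ctla2a also holds an ETS match. Cd34 holds 1 match of each family and Myct1 holds 2 GATA matches. Of the 9 annotated promoters of 7 of the genes, 4 held a GATA match, as did 26.5% of all 32851 mouse promoters in the table. ETS letters were also in 4 of the 9, against 29.5% of all promoters. E-box letters, CANNTG, were in 7 of the 9, against 66.2% of all. RUNX letters, TGTGGT with C also allowed as the third letter, were in the F2r promoter alone among the 9, and 18.6% of all promoters held them. MEIS letters, TGACAG, were in the Adgrl4 promoter alone among the 9, and 15.9% of all promoters held them. These motifs were chosen with the expression values known, and a match is a description of letters.

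The 10 genes lie on 8 chromosomes of GRCm38.p6. Of these, 3 are on chromosome 13: Ctla2a at chr13:60934155-60936625, Ctla2b at chr13:60895351-60897934 and F2r at chr13:95601780-95618466. Ctla2a and Ctla2b are 36220 bases apart with 1 gene between them. The others are Cd34 at chr1:194938821-194961292, Angpt1 at chr15:42424667-42676977, Myct1 at chr10:5593728-5606789, Adgrl4 at chr3:151437882-151545081, Cd93 at chr2:148436651-148443535, Mc5r at chr18:68336744-68342446 and Muc13 at chr16:33794037-33819929.

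Levels are log2 intensities, so a difference of 1 is a factor of 2, and they compare 1 gene across arrays but not 1 gene with another. The arrays had median intensities of 199.21 in KO DC and 195.65 in WT DC, and between 198.63 and 218.37 in progenitors. Zbtb46 read 8.02 in KO DC against 9.67 in WT DC. In progenitors it read 7.71 in KO, 7.67 in Het and 7.52 in WT Pre MegE cells, 7.70 in KO, 8.30 in Het and 8.14 in WT Pre CFU-E cells, and 7.50 in KO, 8.62 in Het and 8.87 in WT CFU-E cells. KO was thus below WT in DC, Pre CFU-E and CFU-E cells, while in Pre MegE cells all 3 genotypes were below the array median and KO was not the lowest. Marker sums are the log2 of intensities that were added before the log, so the brightest genes of a list weigh most. Summed erythroid markers (6 of 8 on the array) were 14.54 to 14.58 in Pre MegE, 15.09 to 15.12 in Pre CFU-E and 15.36 to 15.41 in CFU-E cells, against 10.72 to 10.78 in DC. Car1, the brightest of these in progenitors, read 13.87 in WT Pre MegE and 14.10 in WT CFU-E cells, while Rhd read 8.45 and 12.84. Classical DC markers (8 genes, among them genes of the DC gate proteins) summed to 16.11 to 16.12 in DC, and to 10.76 to 11.70 in progenitors. Other lineages moved with the stages as well. Megakaryocyte markers (5 of 6 on the array) summed to 12.15 to 12.30 in Pre MegE, 10.48 to 10.58 in Pre CFU-E and 10.31 to 10.38 in CFU-E cells. They include Itga2b, which encodes CD41, a gate protein that the progenitors were sorted to lack. Mast cell markers (5 genes) stood at 12.54 to 12.72, 10.60 to 10.86 and 9.17 to 9.55 in the same order of stages. Granulocyte and monocyte markers (7 genes) stood at 14.37 to 14.59, 13.43 to 13.75 and 13.25 to 13.62. Endothelial markers (5 genes) summed to 11.01 to 11.11, 9.46 to 9.49 and 9.11 to 9.22, with Cdh5 and Kdr below the array median on every progenitor array. The part of these cell types in the falls described next was not tested, and in bulk RNA fewer cells with a transcript and less of it per cell cannot be told apart.

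All 10 genes fell through both steps in KO, Het and WT mice alike, but they divided the fall differently. For each gene the 3 arrays of a later stage lay below the 3 of the earlier stage at both steps, a pattern that the choice of genes favours. It was shared by 32% of genes between Pre CFU-E and Pre MegE, by 30.1% between CFU-E and Pre CFU-E and by 36.5% between CFU-E and Pre MegE. The median log2 difference of the 10 genes was -2.67 at the first step, -1.96 at the second and -4.21 from Pre MegE to CFU-E, against 0.04, -0.0046 and 0.05 over all genes. Over the whole span the medians were -4.11 in KO, -4.09 in Het and -4.06 in WT mice. The 3 patterns, named after the values were seen, order the account: genes with over 60% of their measured log2 fall at the first step in every genotype, genes with 47.3% to 58.8% there, and genes with at most 42.3%.

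**Figure D1:**
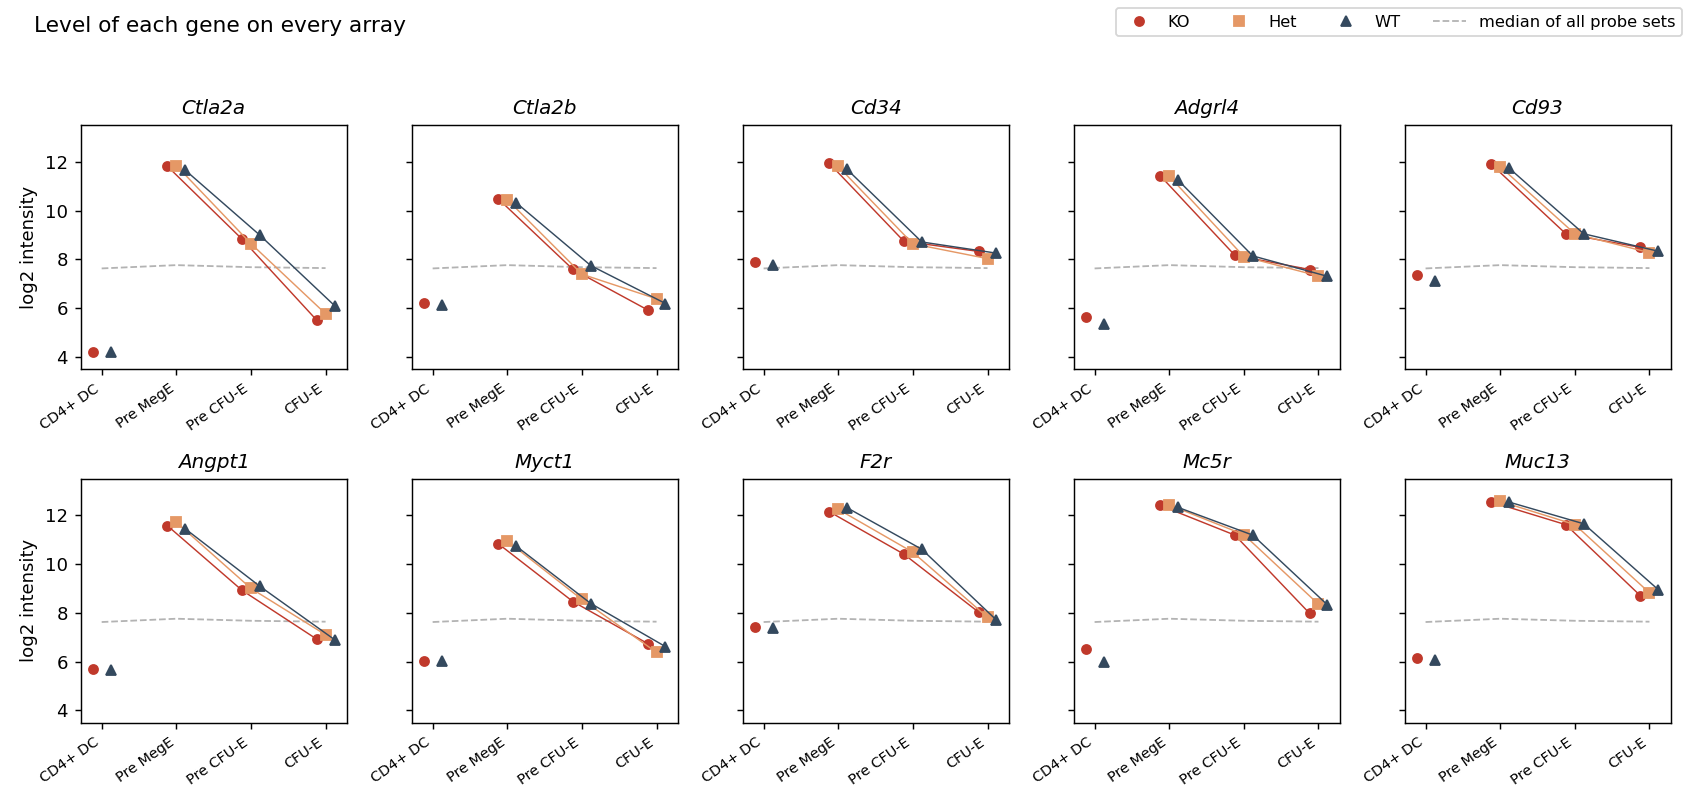
Log2 intensity of each of the 10 genes in CD4+ DC and at the 3 progenitor stages, 1 point per array (KO, Het and WT, no Het DC), with lines joining the stages of a genotype and a dashed line at the mean of the array medians. Cd34, Adgrl4 and Cd93 drop mostly between Pre MegE and Pre CFU-E, and Mc5r, F2r and Muc13 mostly between Pre CFU-E and CFU-E.

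Cd34, the sialomucin that marks blood stem cells and early progenitors and also lines small vessels, had the most one-sided fall of the 10. It read 11.94 in KO, 11.81 in Het and 11.69 in WT Pre MegE cells, 8.74 in KO, 8.63 in Het and 8.71 in WT Pre CFU-E cells, and 8.32 in KO, 8.03 in Het and 8.25 in WT CFU-E cells. Nearly the whole drop was over by Pre CFU-E. The first step was -3.12 ± 0.12 (SD over 3 genotypes), an 8.67-fold fall, and the second -0.49 ± 0.10, a 1.41-fold fall. The first step held 84.0% to 88.6% of the log2 fall. Cd34 stayed above the array median on all 9 progenitor arrays. Its CFU-E mean of 8.20 was close to its DC mean of 7.81, so its second step may still be a lower bound. Its share at the first step would then be lower, and that was not tested.

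Adgrl4, an adhesion G protein-coupled receptor known from endothelium, followed the same course. It read 11.43 in KO, 11.41 in Het and 11.24 in WT Pre MegE cells, 8.16 in KO, 8.11 in Het and 8.14 in WT Pre CFU-E cells, and 7.58 in KO, 7.31 in Het and 7.30 in WT CFU-E cells. Among all genes tested, its first step was the largest fall and that of Cd34 the next. Its steps were -3.22 ± 0.10 and -0.74 ± 0.14 (SD, n = 3 genotypes), or 9.34-fold and 1.67-fold. The CFU-E arrays were all below the array median, so the second step may be a lower bound, though Adgrl4 read lower still in DC.

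Cd93, a C-type lectin of group 14 found on early progenitors, endothelium and some myeloid cells, had 11.90 in KO, 11.80 in Het and 11.74 in WT Pre MegE cells. At Pre CFU-E all 3 arrays gave the same value, 9.05 in KO, Het and WT mice, and in CFU-E cells it read 8.49 in KO, 8.27 in Het and 8.33 in WT mice. Values equal to the last deposited digit on all 3 arrays of a stage occurred elsewhere too, since 796 of 29674 probe sets (2.68%) were equal on the 3 Pre CFU-E arrays, 342 (1.15%) on the Pre MegE arrays and 336 (1.13%) on the CFU-E arrays. The steps of Cd93 were -2.77 ± 0.083 and -0.68 ± 0.11 (SD, n = 3 genotypes), with 78.1% to 83.6% of the fall at the first. With equal Pre CFU-E values, these SDs hold only the spread at Pre MegE and at CFU-E, and may understate the spread between arrays. The level of Cd93 stayed above the array median throughout the progenitor stages.

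Ctla2b showed more of its fall at the first step than at the second, and it parted from its near copy Ctla2a at the second. Both encode small proteins that resemble the propeptide of cysteine cathepsins and inhibit such enzymes. Ctla2b read 10.48 in KO, 10.45 in Het and 10.32 in WT Pre MegE cells, 7.58 in KO, 7.39 in Het and 7.74 in WT Pre CFU-E cells, and 5.92 in KO, 6.38 in Het and 6.19 in WT CFU-E cells. Ctla2a read 11.82 in KO, 11.85 in Het and 11.66 in WT Pre MegE cells, 8.83 in KO, 8.64 in Het and 8.99 in WT Pre CFU-E cells, and 5.51 in KO, 5.76 in Het and 6.10 in WT CFU-E cells. The mean first steps of the pair were close, -2.85 ± 0.25 for Ctla2b and -2.95 ± 0.27 for Ctla2a. Within each genotype Ctla2a fell slightly more, by -2.99 against -2.90 in KO, -3.20 against -3.06 in Het and -2.67 against -2.58 in WT mice. At the second step Ctla2b fell by 1.41 ± 0.35 on the log2 scale and Ctla2a fell by 3.03 ± 0.26 (SD, n = 3 genotypes). The whole fall of Ctla2a, -5.98 ± 0.39 or 63.3-fold, was the largest of all 10701 genes, and 47.3% to 52.7% of it came at the first step. Ctla2b was below the array median on all 3 CFU-E arrays and on 2 of the 3 Pre CFU-E arrays, and Ctla2a on all 3 CFU-E arrays. The late falls of both may thus be lower bounds, though Ctla2a read lower still in DC. The first step of Ctla2b may be a lower bound too, so its share there, 62.4% to 75.2%, is uncertain. How far low levels shape the difference between the pair at the second step was not tested. The probe sets of near copies may share target sequence, and that was not tested.

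Angpt1 and Myct1 fell in 2 similar parts. Angpt1, the secreted ligand of Tie2, read 11.58 in KO, 11.72 in Het and 11.45 in WT Pre MegE cells, 8.93 in KO, 9.01 in Het and 9.09 in WT Pre CFU-E cells, and 6.93 in KO, 7.10 in Het and 6.90 in WT CFU-E cells. Its steps were -2.57 ± 0.19 and -2.03 ± 0.14 (SD, n = 3 genotypes), 5.96-fold and 4.08-fold. The whole fall, -4.60 ± 0.054, was the most even of the 10 across genotypes. Myct1, named as a target of Myc and known from blood stem cells and endothelium, read 10.84 in KO, 10.95 in Het and 10.74 in WT Pre MegE cells, 8.46 in KO, 8.55 in Het and 8.38 in WT Pre CFU-E cells, and 6.74 in KO, 6.38 in Het and 6.62 in WT CFU-E cells. Its steps were -2.38 ± 0.022 and -1.89 ± 0.25 (SD, n = 3 genotypes), 5.19-fold and 3.70-fold. Both genes were below the array median in CFU-E cells, so their second step may be a lower bound too. Both read lower still in DC, with means of 5.68 for Angpt1 and 6.03 for Myct1 against 6.98 and 6.58 in CFU-E cells.

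**Figure D2:**
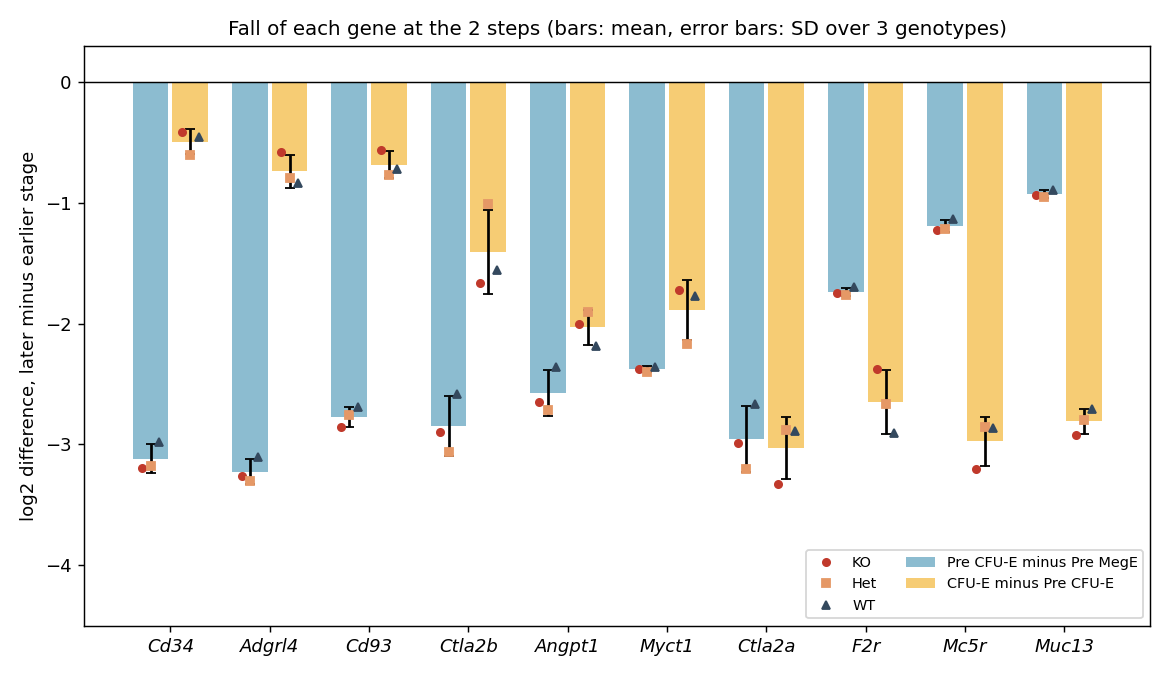
Log2 difference of each gene at the first step (Pre CFU-E minus Pre MegE) and the second step (CFU-E minus Pre CFU-E), with bars at the mean, error bars of 1 SD over the 3 genotypes and a point per genotype, ordered by the share of the fall at the first step. The share runs between 86.3% for Cd34 and 24.8% for Muc13.

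F2r, Mc5r and Muc13 fell more between Pre CFU-E and CFU-E than before. F2r, the thrombin receptor PAR1, read 12.15 in KO, 12.25 in Het and 12.31 in WT Pre MegE cells, 10.41 in KO, 10.49 in Het and 10.61 in WT Pre CFU-E cells, and 8.03 in KO, 7.82 in Het and 7.70 in WT CFU-E cells. It was intermediate, with -1.74 ± 0.031 at the first step and -2.65 ± 0.26 at the second (SD, n = 3 genotypes). Mc5r, a melanocortin receptor known from exocrine glands, read 12.41 in KO, 12.43 in Het and 12.33 in WT Pre MegE cells, 11.19 in KO, 11.21 in Het and 11.19 in WT Pre CFU-E cells, and 7.98 in KO, 8.35 in Het and 8.33 in WT CFU-E cells. Its first step was -1.19 ± 0.048, a 2.28-fold fall, and its second -2.97 ± 0.20, a 7.86-fold fall (SD, n = 3 genotypes). The KO and WT Pre CFU-E values of Mc5r were equal, so these SDs may understate the spread between arrays. Muc13, a transmembrane mucin known from gut epithelium and blood progenitors, lost least at the first step. It read 12.55 in KO, 12.58 in Het and 12.55 in WT Pre MegE cells, 11.62 in KO, 11.62 in Het and 11.65 in WT Pre CFU-E cells, and 8.70 in KO, 8.82 in Het and 8.95 in WT CFU-E cells. Its steps were -0.93 ± 0.032 and -2.81 ± 0.11 (SD, n = 3 genotypes), 1.90-fold and 7.01-fold, with 24.3% to 25.4% of the fall at the first. In CFU-E cells F2r stood just 0.40 in KO, 0.17 in Het and 0.070 in WT mice above the array median. Its second step may thus be a lower bound as well. All 3 genes stayed above the array median on the 9 progenitor arrays. In each genotype their second step was the larger, while for Cd34, Adgrl4, Cd93, Ctla2b, Angpt1 and Myct1 the first step was. Among all genes, Ctla2a, Mc5r, Muc13 and F2r held places 3, 5, 6 and 9 for the second fall, and Cd34 held place 906.

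In CD4+ DC all 10 genes lay below their progenitor mean, which a choice of genes with a high Pre MegE level partly fixes. The difference of DC from the mean of the 3 stages lay between -4.88 for Muc13 and -1.80 for Cd34, with a median of -3.13 against -0.59 over all genes (-0.099 after quantile normalization), and 64.6% of the 11560 genes tested were called lower in DC. Muc13 read 6.15 in KO and 6.09 in WT DC, Ctla2a 4.20 in KO and 4.18 in WT DC, and Angpt1 5.69 in KO and 5.67 in WT DC. These sat below the lower quartile of their arrays, as did Ctla2b with 6.21 in KO and 6.12 in WT DC, Myct1 with 6.04 in KO and 6.03 in WT DC, and Adgrl4 with 5.64 in KO and 5.34 in WT DC. Cd34 alone was above the array median, with 7.87 in KO and 7.75 in WT DC. Cd93 had 7.37 in KO and 7.11 in WT DC, F2r 7.44 in KO and 7.37 in WT DC, and Mc5r 6.52 in KO and 6.00 in WT DC. For 9 of the 10 genes the DC mean was below the CFU-E mean, and for Ctla2b both were 6.2 (DC 6.17, CFU-E 6.16).

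No called difference between genotypes was found in any of the 10 genes across the progenitor stages. With limma, which fits all genes with the stage as a block, 0 of the 10 were called in KO against WT at an adjusted p under 0.05, and 0.14% of all genes (15 of 10701) were. At an unadjusted p under 0.05 there was 1 member, Adgrl4, higher in KO by 0.16 (95% interval 0.018 to 0.31, adjusted p = 0.827), among 614 genes. The estimates lay between -0.20 for Ctla2a, with an interval of -0.48 to 0.091, and 0.16, and no interval of the 10 reached beyond -0.48 or 0.31. Het against WT gave 0 called members, 0 at an unadjusted p under 0.05 and estimates between -0.16 and 0.13, with 0.0374% of all genes called. KO against Het gave 0 called members with limma among 0 called genes (0%). At an unadjusted p under 0.05 that comparison had 1 member, Cd34, higher in KO by 0.18 (adjusted p = 1), among 255 genes.

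**Figure D3:**
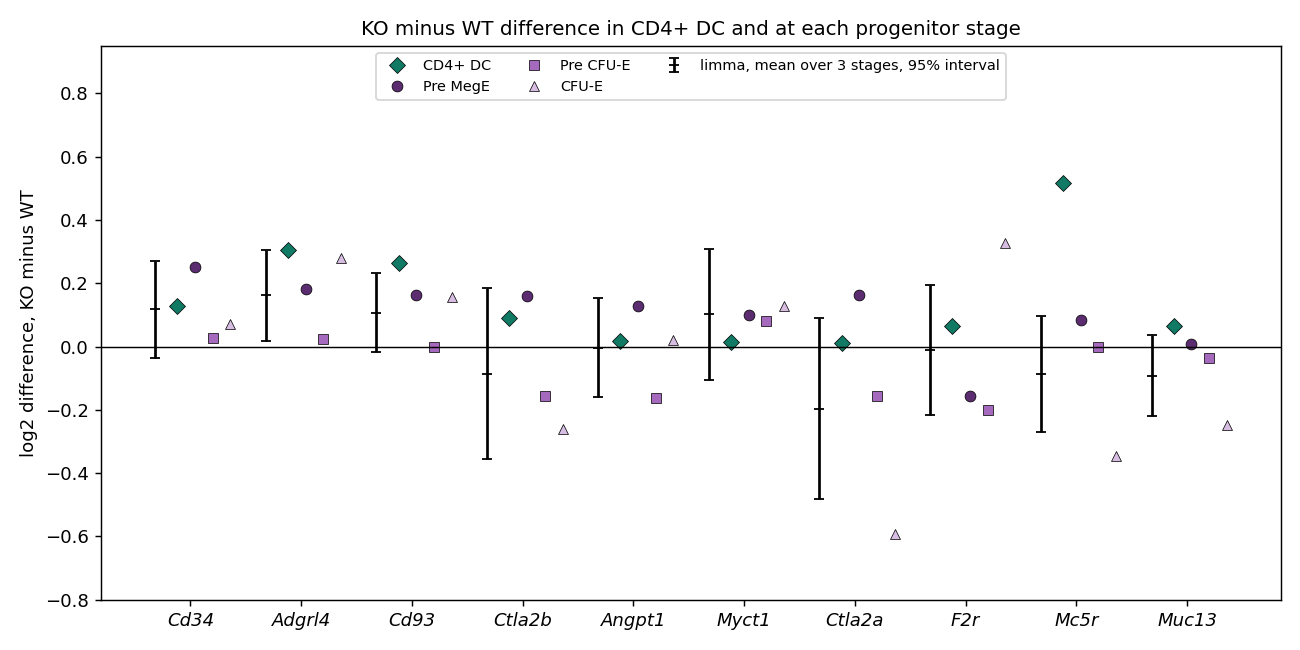
KO minus WT log2 difference of each gene in CD4+ DC and at each progenitor stage (1 array each), beside the limma estimate over the 3 stages with its 95% interval. The intervals lie between -0.48 and 0.31, and the single differences between -0.59 for Ctla2a in CFU-E cells and 0.52 for Mc5r in DC.

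In CFU-E cells Ctla2a had the widest spread over genotypes of the 10 genes. All its CFU-E values lay below the lower quartile of their arrays, so differences at that stage rest on low intensities. Its KO minus WT difference was 0.16 in Pre MegE, -0.16 in Pre CFU-E and -0.59 in CFU-E cells, so its fall over the span was -6.31 in KO, -6.08 in Het and -5.56 in WT mice. The KO minus WT difference of that change was -0.76 (SE 0.191) with an adjusted p of 0.618 in limma. None of the 10 genes and 0% of all genes were called in this test, while 3 members and 833 genes had an unadjusted p under 0.05. The other members were Mc5r, with -0.43, and F2r, with 0.48, whose KO level lay below WT at Pre MegE and above it at CFU-E. The test had 2 residual degrees of freedom, and with 1 array left out it had 1 and its calls moved. The fits that called members, named next, each called between 260 and 499 of all genes. Ctla2a was then called without any 1 of the 3 Het arrays, at the same -0.76, without the KO Pre CFU-E array, or without the KO Pre MegE array, at -1.15, with adjusted p between 0.000246 and 0.00541. F2r was called without any 1 of the Het arrays or without the KO Pre MegE array, there at 0.91 (adjusted p 0.0331 to 0.0359), Mc5r without any 1 of the Het arrays (0.0446 to 0.0467), and Ctla2b without the Het Pre CFU-E or the Het CFU-E array (0.0481 to 0.0495). The Het minus WT difference of the change gave 0 called members and 0% of all genes in limma, with 3 members, Ctla2a (-0.53), Cd34 (-0.35) and Myct1 (-0.45), and 457 genes at an unadjusted p under 0.05. In that test Ctla2a was called without the Het Pre CFU-E array (-0.53) or the Het CFU-E array (-1.13), with adjusted p between 0.0024 and 0.0324. These fits called 83 and 729 of all genes. Ctla2b, at 0.059 with all arrays, was called at -0.86 once the CFU-E array of Het mice was left out (adjusted p = 0.0206). Where the left-out array is Pre MegE or CFU-E, the stage trend of its genotype is extrapolated to a stage with no array, so -1.15, 0.91, -1.13 and -0.86 are not measured changes. Over the 14 alternatives run, the highest adjusted p of each gene named in these tests was 1 after rounding.

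In DC, with 1 array per genotype and no test, all 10 genes read slightly higher in KO than in WT, with a median of 0.078 and a range of 0.012 to 0.52. The median of all genes was -0.051 and their central 95% ran between -0.52 and 0.40, so Mc5r, with 0.52, lay above that band. None reached 2-fold, as 0.313% of 10554 genes did. After centring of each array on its median, or after quantile normalization, 7 were higher and 3 lower.

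The families and pathways around the 10 genes were followed in 10 lists, with 101 distinct genes other than the 10, of which 46 passed the filter in progenitors. In CFU-E against Pre MegE 33 of the 46 fell and 6 rose, where 35.1% of all genes were called lower and 41.5% higher. Their median log2 difference was -0.91 against 0.05 over all genes. At the first step 30 fell and 6 rose (29.3% and 37.1% of all genes), and at the second 25 fell and 3 rose (25.3% and 18.7% of all genes). Of the 46, 12 were below the array median on all 3 arrays of at least 1 stage and passed through their higher stages, and 10 of the 33 falls were among these 12. Of the other 34, 23 fell and 6 rose. With array medians centred, which shifts the median of all genes over the span to 0.17, 31 fell and 8 rose.

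Tek and Tie1, the receptors of the angiopoietin system, were lower in later stages too. Tek, the Tie2 receptor that binds angiopoietin 1, read 9.55 in KO, 9.50 in Het and 9.52 in WT Pre MegE cells, 7.08 in KO, 7.22 in Het and 7.22 in WT Pre CFU-E cells, and 6.53 in KO, 6.68 in Het and 6.46 in WT CFU-E cells. Its differences were -2.35 at the first step and -0.61 at the second. Tek was below the array median in Pre CFU-E and CFU-E cells and passed the filter through Pre MegE alone. Both differences may thus be lower bounds, and the split between them is uncertain. Tie1, its sister receptor, had -1.68 over the span and was likewise below the array median in Pre CFU-E and CFU-E cells. Of 5 genes tested in the angiopoietin list, 2 fell and 2 rose, and those that rose were Angptl4 (0.62) and Angptl6 (0.17). Of 16 endothelial surface genes on the array, 7 passed the filter. Of these 7, 6 fell, among them Pecam1 (-2.37), the adhesion molecule CD31, and Calcrl (-1.92), the calcitonin receptor-like receptor. Tek, Tie1 and Esam, also among the 6, passed through Pre MegE alone, which favours a fall. Vwf (-0.24) lost its call with array medians centred or after quantile normalization. Eng, which encodes the gate protein CD105, was not called here. It was called higher after centring and lower after quantile normalization, and as a gate gene its difference is no finding.

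Stem and progenitor surface genes moved as Cd34 did in direction, 11 of 12 lower and 0 higher over the span. Slamf1, with -4.77, encodes CD150, a gate protein that CFU-E cells were sorted to lack, so its difference is no finding. Tek (-2.97), Adgrg1 (-2.95) and Cd27 (-2.35), a receptor of the TNF receptor family, came next. Kit (-0.92), also among the 11, encodes the gate protein CD117. Tek, Cd27 and Esam passed the filter through Pre MegE alone, which favours a fall. Crkl, an adaptor protein gene of the CD34 list, fell by 0.39 on the log2 scale. Of the closest relatives of CD34, Podxl passed the filter and was not called over the genotypes together (0.24, adjusted p = 0.354), which moved in opposite directions. Podxl read 8.90 in KO, 8.90 in Het and 8.81 in WT Pre MegE cells, 8.20 in KO, 9.26 in Het and 8.90 in WT Pre CFU-E cells, and 8.25 in KO, 9.53 in Het and 9.56 in WT CFU-E cells. It was thus lower in KO than in WT and Het cells at the later stages, a difference of change that was not called in limma, as for every other gene tested. Among adhesion receptors related to Adgrl4, 5 of 6 fell over the span and Adgre5 rose by 0.34. Adgrg3 had the largest difference of these, -3.42, and Adgrl2 and Adgrl1, of the latrophilin group that Adgrl4 is named with, had -1.44 and -1.20. Of the lectins grouped with Cd93, Thbd, the thrombin cofactor thrombomodulin, fell by 1.70 on the log2 scale and Cd248 rose by 0.67.

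**Figure D4:**
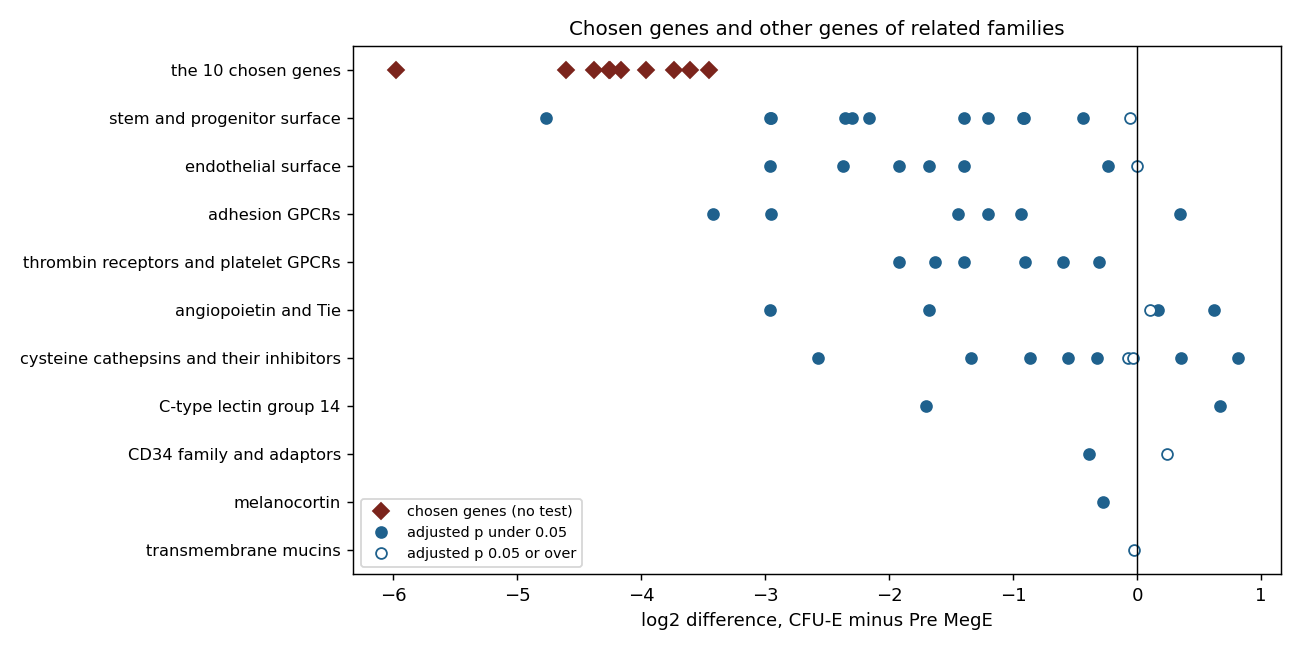
Log2 difference of CFU-E minus Pre MegE for the 10 chosen genes (diamonds, not tested) and for the tested genes of 10 related lists (circles, filled at an adjusted p under 0.05 in limma). The stem and progenitor surface list runs down to -4.77 for Slamf1, and both cathepsin and angiopoietin lists hold genes on either side of 0.

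All 6 tested genes of the thrombin receptor and platelet list fell over the span, as F2r did. F2rl3, the thrombin receptor PAR4, had -1.92, and F2rl2, the thrombin receptor PAR3, had -0.90. Gp9 and Gp5, parts of the platelet receptor for von Willebrand factor, had -1.63 and -1.39, beside the megakaryocyte marker sums given above. Cathepsins and their inhibitors, the enzymes that Ctla2a and Ctla2b relate to, were mixed, with 5 of 9 lower and 2 higher. Cst7, which encodes the inhibitor cystatin F, had -2.57 and Ctsb had 0.82, while Ctsl, the cathepsin L gene, was not called (-0.074, adjusted p = 0.478). Of the transmembrane mucin list 1 gene, Mcam, passed the filter and it was not called (-0.029). Mcam encodes an adhesion molecule that is not a mucin, so no mucin of that list was tested.

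Mc2r, the receptor for adrenocorticotropic hormone and the neighbour of Mc5r on chromosome 18, 64452 bases away with 0 genes between, took another course. It read 7.12 in KO, 7.43 in Het and 7.28 in WT Pre MegE cells, 8.99 in KO, 8.85 in Het and 8.64 in WT Pre CFU-E cells, and 7.06 in KO, 7.11 in Het and 6.83 in WT CFU-E cells. The Pre CFU-E arrays thus stood above the others for Mc2r, where Mc5r fell at both steps. Mc2r was below the array median in Pre MegE and CFU-E cells and passed the filter through Pre CFU-E alone. Its log2 differences of 1.55 at the first step and -1.83 at the second are a description and may be lower bounds.

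The genes whose pattern over the 11 arrays was most like each of the 10 are given as a description, since the arrays fall into 4 cell types and share them. Erg, an ETS family transcription factor gene, had a Pearson correlation of 0.998 with Cd93 and a span of -2.88. Mycn, a Myc family gene, had 0.997 with Cd34 and a span of -3.04. Cpa3, a mast cell protease gene, had 0.997 with Angpt1 and a span of -3.69, and Treml2 was next for Angpt1 (0.996) and near the top for Ctla2a (0.998). Igfbp4 had 0.998 with Ctla2a, Afap1l1 0.996 with Ctla2b, Sik3 0.997 with Myct1 and Sugp2 0.997 with Adgrl4. Rasa3, a gene for a Ras GTPase-activating protein, had 0.996 with F2r and a span of -2.13. Ctps2 and Prkcq each had 0.993 with Mc5r, and Cers4 had 0.998 with Muc13. The likeness is one of shape, as Cers4 spanned -1.04 where Muc13 spanned -3.73. The other nearest genes were Olfr414 for Ctla2b (0.995), Zfyve27 for Cd34 (0.994), Kctd1 for Myct1 (0.996), Psd3 for Adgrl4 (0.996), Gstm7 for Cd93 (0.997), Dpy19l3 for F2r (0.996) and Rhbdd2 for Muc13 (0.996).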

How the data were processed

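Messenger RNA was measured on 11 single-colour arrays. The deposited values are linear intensities per probe set, made by the authors with RMA per the submitters' processing notes, whose version and later scaling the labels do not state. The scale was taken as linear because array medians lay between 195.65 and 218.37. Of 29674 probe sets, 21780 had 1 symbol in the platform annotation, 1618 several and 6276 none, and a gene with several probe sets took the brightest. The log2 of each intensity was used with no further scaling.

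Genes at or above the array median on at least 2 arrays were tested (10701 in progenitors, 11560 over all arrays). Tests were two-sided with limma 3.58.1 in R 4.3.3 (lmFit, eBayes) and Benjamini-Hochberg adjustment over all genes tested, called under 0.05. Stage and genotype entered 1 additive fit with 4 residual degrees of freedom and a median residual SD of 0.0705. A fit with a stage trend per genotype tested differences of the change. DC and progenitors were fitted with genotype as a block. The fits were tested on simulated data. The number of arrays limits the precision.

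The 10 genes, the lists, the markers and the motifs were chosen with earlier results of these data known. Named genes are the 10, up to 4 called genes of each list by size of the span, the 2 most alike genes per member, and any list gene singled out afterwards, such as Podxl, Ctsl and Mc2r, which were chosen after their values were seen. The alternatives were scaling, filter, mean over probe sets, eBayes with an intensity trend, no genotype term, only the 2 stages compared, and leaving out each array.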

Additional observations from a re-analysis of the deposited data

How the results depend on the processing

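The falls of the 10 genes kept their direction at both steps under every alternative run. The median span was -4.09 with array medians centred and -4.14 after quantile normalization, and with each array left out in turn it was -4.26 to -4.07, the first step -2.74 to -2.62 and the second -2.01 to -1.92. For KO against WT, Het against WT and KO against Het, all 140 values of the 10 genes under alternatives stayed without a call, while the DC differences, which the choice of genes partly fixes, lay between -4.96 and -1.62. Counts over all genes were less steady. Without the filter on low values KO against WT called 7 genes and Het against WT 1. With 1 array left out, KO against WT called 1 to 26 genes, Het against WT 1 to 5 and KO against Het 0 to 1. The genotype difference of the stage change called 0 to 499 genes and 0 to 4 members for KO minus WT, and 0 to 729 genes and 0 to 2 members for Het minus WT. In the last of these Ctla2b turned direction with a call, and with 1 array left out its value lay between -0.86 and 0.98. Such a fit has 1 residual degree of freedom and extrapolates the Het trend to a stage with no Het array, so the turn is not a measured change. The stage comparisons called 6249 to 7388, 3442 to 5025 and 7541 to 8284 genes (first step, second step, span), and DC against progenitors 9323 to 10369.

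Centring moved the split of higher and lower calls to 5045 and 2522 at the first step (3965 and 3134 without it), 2499 and 2309 at the second (2004 and 2708) and 5696 and 3085 over the span (4443 and 3759). Quantile normalization moved the DC split to 4671 and 5512 (2928 and 7463). No paired analysis was possible because the labels carry no replicate numbers, and the fits used genotype or stage as blocks instead. Levels below the array median, in CFU-E cells for 5 of the 10 genes and in DC for 9, may limit how much of a fall can be seen.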

Other observations

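Some adhesion receptors, relatives of Adgrl4, were high in DC and below the array median on all 9 progenitor arrays. Adgre1, the macrophage antigen F4/80, read 12.39 in KO and 12.33 in WT DC, against 5.96 to 6.70 in progenitors. Adgrl3, a latrophilin, read 11.93 in KO and 11.74 in WT DC, against 5.34 to 5.73 in progenitors. Adgrg1, which was lower at later stages of the red cell path, read 7.38 in KO and 7.42 in WT DC, against 10.2 to 13.4 in progenitors. These genes were singled out after their values were seen, and the values are a description.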
